A study of Caenorhabditis elegans with 2 samples.

Results

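The regions described here are the candidate binding regions of the zinc finger protein ZTF-3 that lay at small nucleolar RNA (snoRNA) genes. A region was taken when its summit, the position of highest signal, lay within 500 bp of a gene annotated as snoRNA and not within 500 bp of a tRNA gene. Of 30000 regions in the list made from both replicates together, 284 had a summit within 500 bp of a snoRNA gene, 3 of these were left out for a tRNA gene, and 281 remained. They lay nearest to 208 of the 346 annotated snoRNA genes, and 64 of those genes had more than 1 region, up to 4. DNA bound by the tagged protein was pulled down with an antibody against GFP and sequenced (ChIP-seq). This was done on whole Caenorhabditis elegans of strain OP614, with the genotype unc-119(tm4063) and the integrated transgene wgIs614, which carries ztf-3 joined to TY1, EGFP and 3xFLAG tags and a working copy of unc-119. The only group was 2 biological replicates, labelled 4 and 5, of mixed-sex young adults aged 58 h, synchronized by starving L1 larvae after bleaching, and both were set against 1 control. An untagged strain, another stage or another condition was not analysed here, so every comparison below is between groups of regions within these animals.

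snoRNAs are short non-coding RNAs that guide the chemical modification of ribosomal and spliceosomal RNA in the nucleolus. Those of the C/D type guide methylation of the ribose and those of the H/ACA type guide the change of uridine to pseudouridine, each in a complex with its own set of proteins. In animals many snoRNAs lie in introns of other genes and are trimmed out of the spliced intron, while others have a promoter of their own. tRNA genes are read by RNA polymerase III from a promoter inside the gene, made of an A box followed by a B box.

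The sequences below were picked to show the upstream letters by which snoRNA genes were grouped. Not every gene with the letters is shown. Each is the 100 bases before a snoRNA gene, 5′ to 3′ on the strand of that gene, from the RefSeq WBcel235 genome. The first set had a core of an A box, TGGNNNA, followed on the same strand 25 to 80 bp later by a core of a B box, GTTCNA. A single pair per gene is in capitals, and further matches in C51F7.3, C05D2.15 and Y43F8C.22 are left in lower case. Of all 29 snoRNA genes with the pair, 16 had a thresholded summit. The sequences of this set all come from those 16, in descending order of signal. These are the sequences before T03F7.8 at chrV:11314158-11314257 (plus strand), C51F7.3 at chrV:12303608-12303707 (plus strand), W03C9.9 at chrII:11960798-11960897 (plus strand), C05D2.15 at chrIII:5602180-5602279 (minus strand), F32E10.10 at chrIV:7574022-7574121 (plus strand), F30H5.4 at chrIII:502704-502803 (plus strand), Y43F8C.22 at chrV:19643188-19643287 (minus strand) and M106.6 at chrII:10840217-10840316 (plus strand).
T03F7.8: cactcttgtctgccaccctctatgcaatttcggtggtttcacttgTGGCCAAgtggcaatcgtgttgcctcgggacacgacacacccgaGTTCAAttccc
C51F7.3: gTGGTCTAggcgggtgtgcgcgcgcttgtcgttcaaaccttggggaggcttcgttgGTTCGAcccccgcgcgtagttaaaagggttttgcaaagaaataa
W03C9.9: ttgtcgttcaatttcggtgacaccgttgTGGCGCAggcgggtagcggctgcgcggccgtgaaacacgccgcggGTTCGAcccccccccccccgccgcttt
C05D2.15: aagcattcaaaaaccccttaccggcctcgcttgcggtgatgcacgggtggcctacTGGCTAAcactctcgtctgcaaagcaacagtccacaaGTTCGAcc
F32E10.10: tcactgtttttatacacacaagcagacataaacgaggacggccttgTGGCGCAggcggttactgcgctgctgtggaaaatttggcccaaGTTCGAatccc
F30H5.4: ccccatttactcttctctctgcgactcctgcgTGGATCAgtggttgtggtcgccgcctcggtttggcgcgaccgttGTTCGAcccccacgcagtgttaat
Y43F8C.22: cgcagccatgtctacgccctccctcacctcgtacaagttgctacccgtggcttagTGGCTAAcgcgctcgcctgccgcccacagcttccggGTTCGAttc
M106.6: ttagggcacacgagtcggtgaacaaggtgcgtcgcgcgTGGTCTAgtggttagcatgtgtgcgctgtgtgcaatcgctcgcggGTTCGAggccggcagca

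A second set had the letters TGTCGG, in capitals, which also occur before many snRNA genes. Of all 32 snoRNA genes with these letters, 4 had a thresholded summit. Among the sequences shown, the first 3 had a region in the thresholded list and the last did not. They lay at ZK994.7 at chrV:8500479-8500578 (plus strand), T26A8.6 at chrIV:8428740-8428839 (minus strand), C08D8.3 at chrV:8349008-8349107 (plus strand) and W04D2.7 at chrV:12491180-12491279 (plus strand).
ZK994.7: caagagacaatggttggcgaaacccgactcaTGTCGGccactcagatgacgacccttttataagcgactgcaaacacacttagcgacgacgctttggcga
T26A8.6: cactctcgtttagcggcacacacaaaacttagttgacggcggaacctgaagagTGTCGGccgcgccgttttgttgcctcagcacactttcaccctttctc
C08D8.3: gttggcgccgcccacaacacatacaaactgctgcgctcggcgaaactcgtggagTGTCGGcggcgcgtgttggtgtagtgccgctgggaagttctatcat
W04D2.7: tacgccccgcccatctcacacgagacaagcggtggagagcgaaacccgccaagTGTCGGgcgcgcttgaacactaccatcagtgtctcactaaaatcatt

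For comparison, 2 snoRNA genes with thresholded regions had neither the whole pair nor TGTCGG in their upstream sequence, which therefore has no capitals. Both do hold an A box core, such as tggctaa in K02C4.8 and tggttaa in C10C6.8, but no B box core. C10C6.8 has gttcgt, which differs from the B box core in its last letter only. Genes counted as without the pair thus include genes with part of it. They lay at K02C4.8 at chrII:8075409-8075508 (plus strand) and C10C6.8 at chrIV:11474192-11474291 (minus strand).
K02C4.8: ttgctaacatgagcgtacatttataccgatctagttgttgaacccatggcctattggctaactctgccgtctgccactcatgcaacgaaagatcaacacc
C10C6.8: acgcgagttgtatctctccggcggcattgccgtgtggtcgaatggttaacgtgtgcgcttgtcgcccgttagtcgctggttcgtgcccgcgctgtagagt

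The snoRNAs themselves are shown for 1 gene of each type. Capitals mark the C box TGATGA and the D box CTGA in W03C9.9, and the ACA near the 3′ end in D1046.6. The genes lay at W03C9.9 at chrII:11960898-11960959 (plus strand) and D1046.6 at chrIV:8927265-8927393 (plus strand).
W03C9.9: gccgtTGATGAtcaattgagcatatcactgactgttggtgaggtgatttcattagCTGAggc
D1046.6: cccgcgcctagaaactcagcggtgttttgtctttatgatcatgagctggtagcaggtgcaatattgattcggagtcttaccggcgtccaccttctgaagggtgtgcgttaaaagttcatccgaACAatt

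Regions at snoRNA genes were in the thresholded list more often than candidate regions in general. That list holds the 534 pooled regions of highest signal, which the authors kept by the irreproducible discovery rate (IDR), a score of how alike regions rank in the replicates. It held 41 of the 281 regions, or 14.6% (exact binomial 95% interval 10.7% to 19.3%), beside 1.78% of all pooled regions. Intervals here cover counting error only, since regions are not replicates, and the read depth is unknown because the lists hold no read counts. The share was 11.6% of 508 regions at tRNA genes and 17.2% of 87 regions at snRNA genes, and the intervals of all 3 RNA gene sets overlapped. It was 1.12% of 8278 other regions in introns and 2.97% of 8817 other regions between genes, both below the interval of the snoRNA regions.

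**Figure D1:**
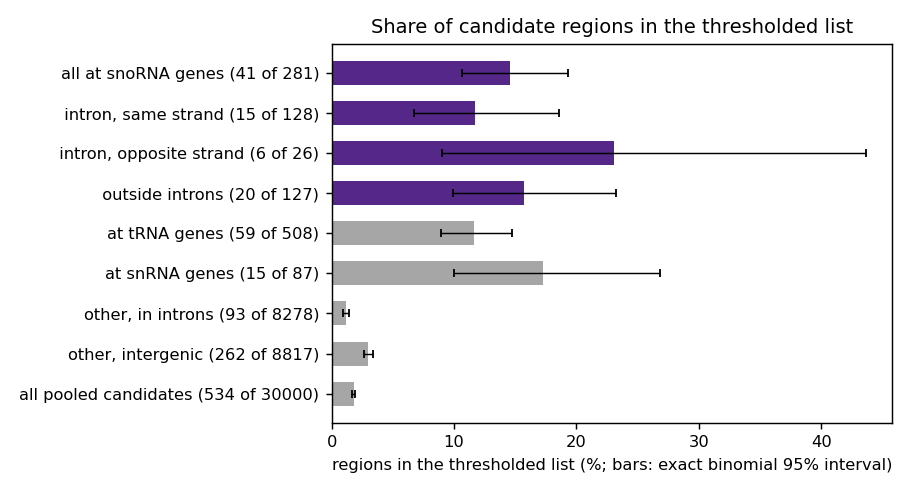
Share of candidate regions in the thresholded list, in percent, for regions at snoRNA genes and their 3 classes (purple) and for other sets (grey); whiskers are exact binomial 95% intervals. The 3 snoRNA classes lie between 11.7% and 23.1% with overlapping whiskers, and all pooled regions lie at 1.78%.

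The signal, the authors' own value for the strength of a region, was moderate at most snoRNA genes. Its median was 35.6 over the 281 regions (95% interval of the median 33.0 to 39.6), 41.1 at tRNA genes, 35.0 at snRNA genes and 28.0 over all pooled regions. The highest was 200 at T03F7.8, which ranked 38 in the pooled list. None of the 25 strongest pooled regions and 5 of the 100 strongest lay at a snoRNA gene. Of the 281, 20 (7.12%) were among the 267 strongest pooled regions, beside 0.89% of all pooled regions. The width says nothing of their extent, because 279 of the 281 were exactly 444 bp wide.

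Regions at snoRNA genes inside introns and outside them had overlapping intervals for the median signal and for the share in the thresholded list, which does not show that they are alike. A gene was called hosted when it lay wholly in an intron of a protein-coding gene on the same strand, opposite when it lay in such an intron of the other strand only, and outside otherwise. The median signal was 35.7 over 128 hosted regions (32.8 to 40.5), 32.3 over 26 opposite regions (26.3 to 42.6) and 37.5 over 127 outside regions (31.2 to 44.6). The thresholded list held 15 hosted regions (11.7%, 6.71% to 18.6%), 6 opposite regions (23.1%, 8.97% to 43.6%) and 20 outside regions (15.7%, 9.89% to 23.3%). All of these intervals overlapped. Counted by gene, a thresholded summit lay within 500 bp of 16 of 150 hosted genes (10.7%) and 7 of 28 opposite genes (25%). For outside genes this was 20 of 168 (11.9%). Neighbouring genes could share a summit, so gene counts are not independent. The opposite genes C27H5.9 and C27H5.10 shared a thresholded summit, as did hosted C51F7.3 and outside C51F7.4.

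Being outside an intron did not always mean lying between genes. Of the 168 outside genes, 44 overlapped a protein-coding gene without lying wholly in an intron, and 4 of these had a thresholded summit, beside 16 of the 124 clear of protein-coding genes. The median signal was 27.7 over 28 regions at the overlapping genes and 42.6 over 99 regions at the clear ones. The shares in the thresholded list were 14.3% (4.03% to 32.7%) and 16.2% (9.53% to 24.9%).

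Counted per pooled summit, the share among each replicate's strongest regions put hosted and outside regions in opposite orders in the 2 replicates. By median rank, for which no interval was computed, hosted regions came first in both. A replicate was said to list a region when the pooled summit lay inside a region of its own list, and to rank it high when that region was among its 534 strongest. Neighbouring pooled summits could lie in the same replicate region, and each then took its rank and was counted. Replicate 4 ranked 43 of the 281 regions high (15.3%, beside 2.27% of all pooled regions), and replicate 5 ranked 44 high (15.7%, beside 2.17%). Among hosted regions the share was 17.2% (11.1% to 24.9%) in replicate 4 and 10.9% (6.11% to 17.7%) in replicate 5. Among outside regions it was 11.8% (6.76% to 18.7%) in replicate 4 and 19.7% (13.2% to 27.7%) in replicate 5. The intervals overlapped within each replicate. In replicate 4 a weaker neighbouring summit was counted as high in this way at hosted ZK994.7, F01D5.12, C10C6.8, T08B2.13, F38E11.14, F55A11.10 and R166.7, and at outside T19B4.8. In replicate 5 this held at least at hosted ZK994.7, F01D5.12 and T08B2.13 and at outside T19B4.8, T26A8.6, C17H12.36 and ZK20.9. Shared ranks also enter the median ranks that follow. Neither the order of the shares nor that of the medians was tested with each replicate region counted a single time. The median rank was 2758 over the 113 hosted regions that replicate 4 listed and 4113 over its 109 outside regions. In replicate 5 it was 2833 over 91 hosted and 3941 over 97 outside regions. Both replicates ranked 22 of the 281 high (7.83%, beside 1.03% of all pooled regions), 9 of them hosted, 3 opposite and 10 outside. Of these, 18 were thresholded, 6 hosted, 3 opposite and 9 outside. The other 4 were neighbouring summits at ZK994.7, F01D5.12, T08B2.13 and T19B4.8 that took the ranks of the thresholded region beside them.

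Most snoRNA regions were listed by both replicates. Replicate 4 listed 243 (86.5%), replicate 5 listed 207 (73.7%), and both listed 171 (60.9%), where both listed 35.1% of all pooled regions. Median ranks were 3330 in replicate 4 and 3443 in replicate 5, against 11219 and 10226 for all pooled regions that each listed. When replicate summits had to lie within 100 bp, the medians of snoRNA regions were 5600.5 and 3180.5. No value for all pooled regions is given for that setting. The lists of the replicates are on different scales, with median signals of 22.6 and 9.86, so ranks and not signals were set side by side. Over the 171 regions listed by both, Spearman's rho of the ranks was 0.586, beside 0.333 over the 10516 pooled regions of any kind listed by both. Both values are descriptions only, because the lists share the control and neighbouring summits in the same replicate regions repeat the same ranks.

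The thresholded list was made by IDR, but its members were the same as those of a cut on pooled signal alone. Agreement between replicates therefore need not hold for each region. The pooled signal draws on both replicates, so that both listed all 41 thresholded snoRNA regions is no separate result. The 41 regions ranked 45 to 1191 in replicate 4 and 31 to 5341 in replicate 5. Spearman's rho was 0.0850 over the 41 and 0.400 over the 527 thresholded regions of any kind listed by both. Both values come from a range cut on the combined signal and cannot be set beside the 0.586 above. Both replicates ranked 18 of them high (43.9%, beside 48.5% of all thresholded regions), and 3 were ranked high by neither. T03F7.8 ranked 45 in replicate 4 and 31 in replicate 5, and ZK994.7 ranked 46 and 82, so both replicates placed these near the top. F30H5.4 ranked 161 in replicate 4 and 5341 in replicate 5. C27H6.5 ranked 222 and 2901, and T26A8.6 ranked 969 and 118. Each of these 3 regions was ranked high by 1 replicate only.

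**Figure D2:**
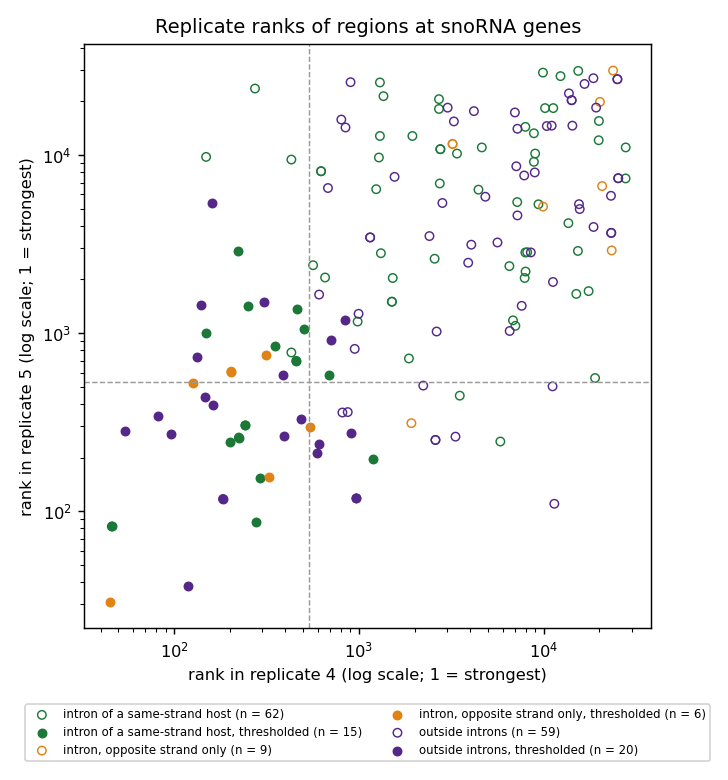
Rank of each snoRNA region in replicate 4 (x axis) and replicate 5 (y axis), both log scales with 1 the strongest, for the 171 regions listed by both; filled points are thresholded and dashed lines mark rank 534. The filled points reach rank 1191 in replicate 4 and rank 5341 in replicate 5.

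Thresholded summits lay close to the 5′ end of the snoRNA gene. Of 59 summits in the 100 bp upstream of the gene, 22 were thresholded (37.3%, 25% to 50.9%), as were 9 of 48 inside the gene (18.8%, 8.95% to 32.6%). The share was 6.17% (2.03% to 13.8%) of 81 summits farther upstream and 5.38% (1.77% to 12.1%) of 93 downstream. The median position was 27 bp upstream for thresholded summits (quartiles from 60 bp upstream to 34 bp downstream of the 5′ end). For the others it was 19.5 bp downstream (158 bp upstream to 240 bp downstream), a far wider spread. In the 100 bp upstream, 9 of 24 summits at hosted genes (37.5%, 18.8% to 59.4%) and 11 of 29 at outside genes (37.9%, 20.7% to 57.7%) were thresholded.

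**Figure D3:**
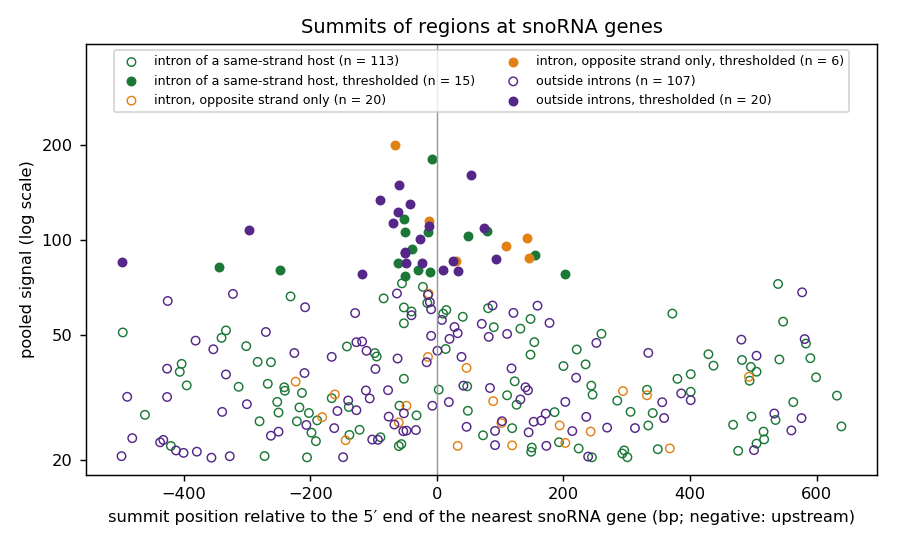
Pooled signal (log scale) of the 281 regions against the position of the summit relative to the 5′ end of the nearest snoRNA gene, in bp, coloured by class; filled points are thresholded. Filled points crowd just upstream of 0, with a median 27 bp upstream; 3 of the 6 filled points of the opposite class lie downstream of the gene.

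snoRNA genes with an A and B box pair upstream, as in the first set of sequences, had thresholded summits more often than the rest. The pair stood in the 100 bp upstream of 29 of 346 snoRNA genes (8.38%), where 0.551% of 19973 protein-coding genes and 0.817% of 612 tRNA genes had it in the same window. Of the other gene types searched, miRNA genes had it most often, at 7 of 261 (2.68%, 1.08% to 5.45%). Inside the gene, 74.7% of tRNA genes had it. A thresholded summit lay at 16 of the 29 snoRNA genes with the pair (55.2%, 35.7% to 73.6%) and at 27 of 317 without it (8.52%, 5.69% to 12.2%). The highest signal per gene with a candidate had a median of 85.9 over 27 genes with the pair and 39.0 over 195 without it. The pair was chosen after these data were seen. Upstream words of 6 and 8 bases (2206 and 3584 distinct ones at thresholded genes) were ranked by how much more often they occurred there, the sequences were read, and 1 spelling and spacing was then set. The shares therefore describe the genes the spelling was drawn from and are no test.

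By class, the intervals with and without the pair were apart among outside and hosted genes and overlapped among opposite genes. With the pair the share was 75% of outside genes (42.8% to 94.5%) and 41.7% of hosted genes (15.2% to 72.3%). Without it the shares were 7.05% (3.57% to 12.3%) and 7.97% (4.05% to 13.8%). The outside and hosted intervals with the pair overlapped, so the classes are not ranked. Thresholded summits lay at 5 of 12 hosted genes with the pair and 11 of 138 without, at 2 of 5 and 5 of 23 opposite genes, and at 9 of 12 and 11 of 156 outside genes. With a single pair taken per gene, the B box core started a median of 15 bp before the snoRNA gene (7 to 44 bp). The A box core lay 35 to 55 bp before the B box core. A further match in C51F7.3, with a B box core farther upstream, lies outside both ranges. Thresholded summits at genes with the pair lay from 66 bp upstream to 25 bp downstream of the 5′ end, with a median 39 bp upstream. In replicate 4 alone 16 of the 29 genes had a summit ranked high, and in replicate 5 alone 12 did, against 20 and 25 of the 317 others.

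A stricter B box was sought at the summits themselves. GGTTCGA or GGTTCAA followed by any 2 bases and then CC, on either strand within 50 bp of a summit, occurred at 10 of 41 thresholded snoRNA regions (24.4%), 2 of the 240 others (0.833%) and 0.743% of all pooled regions. At tRNA genes it occurred in 26.0% of regions. It was 1 of 8 spellings sought in these windows. It contains the B box core, and the windows can cover the upstream sequences from which the pair was drawn. These shares are therefore no separate test of the pair. The core GTTCNA alone, sought besides the 8, occurred at 19 of the 41 (46.3%), 48 of the 240 others (20%) and 19.5% of all pooled regions. CGAACC, which overlaps the stricter B box on the other strand, occurred at the same number of thresholded snoRNA regions, 10, and at 2.49% of all pooled regions. AGACGCAG occurred at 2 of the 41 (4.88%, beside 1.26% of all pooled regions) and GACGCAG at 3 (7.32%, beside 1.69%). GAGACGC occurred at 2 (4.88%, beside 1.65%) and TGTCGG at 1 (2.44%, beside 3.92%). Runs of GT or CA and runs of GA occurred at 0 of the 41, beside 0.2% and 0.123% of all pooled regions.

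The snRNA-type letters TGTCGG, as in the second set of sequences, stood before genes whose thresholded share had a wide interval. They stood upstream of 32 snoRNA genes (9.25%), 32.6% of 129 snRNA genes and 0.781% of protein-coding genes, and no snoRNA gene had both these letters and the pair. A thresholded summit lay at 4 of the 32 (12.5%, 3.51% to 29.0%) and at 39 of the 314 others (12.4%, 8.98% to 16.6%), which include the genes with the pair. Among the 285 genes with neither it lay at 23 (8.07%, 5.18% to 11.9%), an interval that overlaps that of TGTCGG. The highest signal per gene had a median of 58.5 over 21 candidate genes with TGTCGG, between 85.9 with the pair and 35.6 over 174 with neither. These letters were the fifth of 7 spellings tried after the data were seen, and of the 5 that matched any snoRNA gene they gave the smallest difference from the genes without them. TGTCGGC gave 4 of 23 (17.4%), TGTCNGC 6 of 35 (17.1%) and GTGTCGG 3 of 17 (17.6%), against 12.1%, 11.9% and 12.2% of the genes without each spelling. A spaced form, with 10 to 13 bases between the letters GNAAC and the later letters TGTCNG, matched no snoRNA gene. Another, with 9 to 13 bases between the letters GAAAC and the later letters TGTCGG, or likewise with GGAAC as the first element and TGTCNG as the second, matched none either. Both forms had a minimum spacing longer than the 8 bases seen in the printed sequences, so their zero counts come from the spacing searched. The last spelling, set after those sequences were read, had exactly 8 bases between the letters GNAAC and the later letters TGTCNG. It stood upstream of 32 snoRNA genes, 22.5% of snRNA genes and 0.0451% of protein-coding genes, and 5 of the 32 had a thresholded summit (15.6%, 5.28% to 32.8%) against 12.1% of the genes without it.

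**Figure D4:**
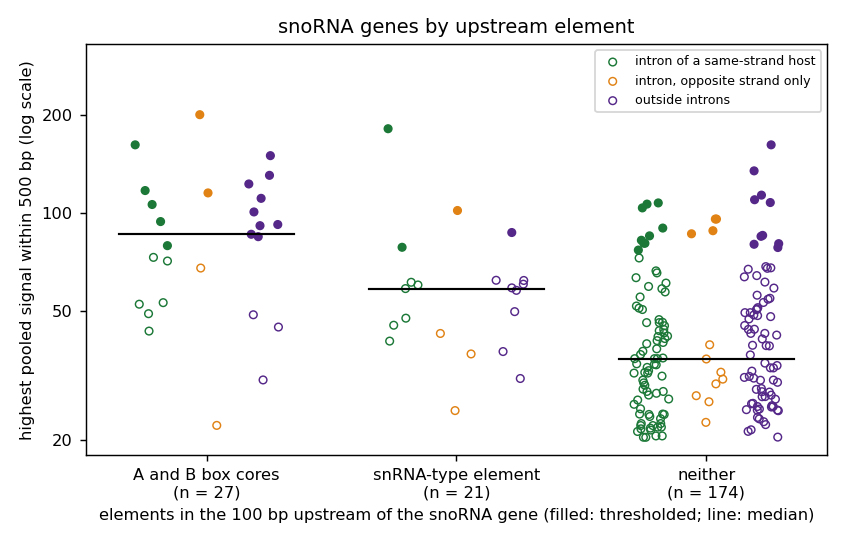
Highest pooled signal (log scale) within 500 bp of each snoRNA gene with a candidate region, by the letters in its upstream 100 bp: the A and B box cores (n = 27), the snRNA-type letters (n = 21) or neither (n = 174). Filled points are thresholded, colours give the class and lines are medians, at 85.9, 58.5 and 35.6.

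Among genes outside introns, the strongest region was shared by a pair of snoRNA genes of different classes. Its signal was 162 (rank 62), its summit lay inside C51F7.4 and in an intron of frm-7, and C51F7.3, which has the pair upstream and lies in intron 4 of frm-7, was within 500 bp. W03C9.9, a C/D type gene with the pair, followed with a signal of 150 and ranks of 119 in replicate 4 and 38 in replicate 5. T06C12.16 had a signal of 130 and ranks of 96 and 271, and F32E10.10 a signal of 111 and ranks of 133 and 733. The other eight of the 12 strongest, ZK265.10, T19B4.8, Y23H5B.10, K02C4.8, R166.10, F30H5.4, Y75B12B.12 and Y39G10AR.24, had signals from 91.3 to 135. R166.10 stood apart in distance, with its summit 297 bp upstream of the snoRNA gene. Its summit and those at ZK265.10, K02C4.8 and Y75B12B.12, 4 of the 12, lay in the promoter window of a protein-coding gene, from 1000 bp before its start to 200 bp after it.

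Among hosted genes the strongest was ZK994.7, in intron 17 of the peroxidasin gene pxn-1, with a signal of 181 and rank 47. C05D2.15, in intron 4 of madf-11, had a signal of 117 and ranks of 279 in replicate 4 and 87 in replicate 5. D1046.6 in cfim-2, C10C6.8 in catp-8 and T08B2.13 in fars-1, a phenylalanyl-tRNA synthetase subunit, had signals of 107, 106 and 106. The remaining 7 of the 12 strongest lay in Y38F2AR.12, Y43F8C.7, F01D5.10, unc-41, egl-27, W08G11.3 and rps-12, with signals from 80.6 to 104. The snoRNA genes nearest the 15 thresholded hosted regions lay in 15 different hosts, and the summits themselves lay in introns at 12, in exons at 2 and between genes at 1. snoRNA genes in 9 ribosomal protein genes, common snoRNA hosts, had 14 regions, of which 5 had a summit between genes and 1 was thresholded. That 1 region, at F54E7.10 in rps-12, had its summit between genes, 248 bp upstream of the snoRNA gene and in a promoter window.

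Promoter windows of protein-coding genes held 13 of the 41 thresholded regions, and 96 of all 281 (34.2%) beside 8537 of all 30000 pooled regions. At these summits the snoRNA gene and the protein-coding promoter cannot be told apart by position. Without the regions in such windows the thresholded share of snoRNA regions was 15.1%.

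The type of snoRNA was recognised from its own letters in few genes. A C box within the first 15 bases and a D box within the last 15 stood in 13 genes, and ACA 2 to 4 bases from the 3′ end in 75, with 258 having neither. The pair stood upstream of 5 of the 13, 8 of the 75 and 16 of the 258. The median highest signal was 73.0, 43.0 and 41.0 in turn, over the 9, 56 and 157 of these genes with a candidate region. No interval was computed for these medians, and the first rests on few genes.

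Genes for the proteins that assemble with snoRNAs were compared as a list. Of 10 found, 6 had a candidate summit in the promoter window and 0 were thresholded, where 35.5% and 1.55% of protein-coding genes had one. The signal was 46.5 at fib-1, the methyltransferase of C/D complexes, 26.6 at nol-56 and 52.6 at nol-58, both core C/D proteins. It was 22.5 at dkc-1, the pseudouridine synthase of H/ACA complexes, 44.2 at nola-3 and 29.5 at ruvb-2, an assembly factor. No candidate lay at snu-13, garr-1, Y48A6B.3 or ruvb-1. The region at nol-56 is not separate from the snoRNA regions, because it also lay within 500 bp of the snoRNA gene K07C5.11 in intron 1 of nol-56.

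The distance of 500 bp cut through a thin scatter of summits. Just inside it lay W01H2.11 at 497 bp with a signal of 85.2, which was thresholded, and T19E7.29 at 498 bp with a signal of 20.6. Just outside lay C06A1.9 at 501 bp with a signal of 230, rank 21 and thresholded, and C17D12.18 at 508 bp with a signal of 21.5. By chromosome, 9 of 65 regions were thresholded on I, 10 of 67 on II, 5 of 49 on III, 7 of 49 on IV, 9 of 36 on V and 1 of 15 on X. Of all pooled regions, 1.95% were thresholded on I, 1.59% on II, 2.41% on III, 1.31% on IV, 1.31% on V and 2.16% on X.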

How the data were processed

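ChIP-seq candidate regions came from 4 deposited lists: 1 per replicate, 1 pooled and 1 thresholded. Per the file headers, each candidate list was derived by the authors from alignments and 1 control on ce11, and the thresholded list by IDR. The peak caller and aligner: not given in the sources used here. Each list gives the authors' signal value, the deposited −log10 q value (the p column is empty) and the summit offset from the region start.

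Summits were placed on WBcel235, the same assembly as ce11 (every pooled region ended inside its chromosome), with Ensembl release 115. Each region took the class of its nearest snoRNA gene. Calculations used Python 3.11.15, numpy 2.4.6, pandas 2.3.3 and scipy 1.17.1, with plots in matplotlib 3.10.9, and the code was tested on simulated data. Shares have exact (Clopper-Pearson) 95% intervals. No p-values were computed. With no counts in the lists, depth and its effect on precision are unknown. The genes named were those nearest the 12 strongest outside and 12 strongest hosted regions, those nearest other thresholded regions, those at the edge of the distance rule and the snoRNP list. Members and lists were chosen with earlier results of these data known. The upstream and summit spellings were chosen after seeing the data. Alternatives were other distances, ways of matching replicates, host definitions, 1 region per gene, single replicates and other spellings.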

Additional observations from a re-analysis of the deposited data

How the results depend on the processing

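Of 60 alternative values, 52 stayed within the interval of the value reported, or within 1.5 times it for counts of genes, and 8 moved. The share of snoRNA regions in the thresholded list was 20.4% with a distance of 200 bp, 19.7% with the strongest region per gene and 7.12% with the thresholded list cut to its 267 strongest regions, which are 0.89% of all pooled regions. With that shorter list it was 4.69% for hosted and 7.87% for outside regions. The median signal was 39.9 with 200 bp and 42.6 with the strongest region per gene. With the B box core alone in place of the pair, the thresholded share of genes was 33.9%. The last value shows that the 55.2% depends on a spelling set after the data were seen. With 1 replicate left out, the thresholded share became the share ranked high in the other: 15.3% to 15.7% for all snoRNA regions, 10.9% to 17.2% for hosted, 11.8% to 19.7% for outside, 41.4% to 55.2% for genes with the pair, 6.31% to 7.89% for genes without it and 6.25% to 15.6% for genes with TGTCGG. Hosted regions had the higher share without replicate 5 and outside regions without replicate 4. The cause was not tested, and neighbouring summits in the same replicate region were each counted in these shares. The 2 spaced forms with 9 or more bases matched no gene and gave no value. The alternative with 150 bp upstream, the TGTCGG spellings and the promoter windows were added after seeing the data. No paired analysis was possible because there is 1 group and no test.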
